A study of Mus musculus with 4 samples.

Results

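Receptors through which astrocytes sense transmitters were examined for nearby SOX2 occupancy in the mouse cortex. The 8 genes were P2ry1, Adra1a, Adra1b, Ntsr2, Grm3, Grm5, S1pr1 and Gabbr1, of 21631 protein-coding genes in the RefSeq gene table. Peaks were taken where their centre lay inside the RefSeq span of such a gene or within 50 kb of it, on the mm10 build. This gave 31 of 17730 peaks in immunoprecipitated (IP) library 1, 30 of 17628 in IP library 2 and 29 of 15891 in IP library 3. Peaks of different libraries that overlapped were merged into 44 regions, of 27083 in all, and 18 of these held peaks of all 3 libraries, of 9334 in all. A region of that last kind is called reproducible.

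The libraries came from whole cortex of 2-month-old male mice, wild type and of strain C57BL/6. Chromatin bound by SOX2, a transcription factor of neural stem cells and astrocytes, was pulled down with a rabbit polyclonal antibody in 3 IP libraries, and 1 input library was made without antibody. Another label, worded for transduced cells, also names SOX2 for all 4 samples, which does not match wild-type tissue, and it was not used. No injury or deletion is given for any sample. The labels do not say whether each IP library had its own animals, which means that differences among them can be technical. Depth was 32492927 to 41875666 tags, that is, reads with a place in the genome. The authors' tag threshold was 13 to 16, which every deposited peak met by its score, while the tags counted within a peak went down to 10. Strength is given as normalized tags, the authors' value for each peak scaled to 10000000 tags per library, so that 1 tag counts for 0.239 to 0.308. The cortex holds many cell types, and occupancy in more cells cannot be told apart from more occupancy per cell.

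G-protein coupled receptors span the membrane and pass the binding of a ligand to G proteins inside the cell. Receptors coupled to Gq activate phospholipase C, which makes IP3, and IP3 receptors then release calcium from internal stores. Calcium rises of this kind are a main form of activity in astrocytes, which do not fire action potentials. P2ry1 (an ADP receptor), Adra1a and Adra1b (noradrenaline), Ntsr2 (neurotensin) and Grm5 (glutamate) couple mainly to Gq. Grm3 (glutamate), S1pr1 (sphingosine-1-phosphate) and the GABA-B receptor, of which Gabbr1 encodes a subunit, couple mainly to Gi, which lowers cyclic AMP. Several are not particular to astrocytes: Grm5 and Gabbr1 are prominent in neurons, and S1pr1 in endothelial cells.

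Each of the 8 genes had at least 1 reproducible region within 50 kb, against 46.6% of all protein-coding genes. Among genes with a span under 10 kb the share was 36.7%, and P2ry1, Ntsr2 and S1pr1, all of that size, had 2, 2 and 3 regions. Among genes with a span of 100 kb or more it was 63.6%, and Adra1a, Adra1b, Grm3 and Grm5 had 1, 1, 5 and 1. Gabbr1, with a span of 28.3 kb, had 3. At least 3 reproducible regions were found near Grm3, S1pr1 and Gabbr1, against 8.98% of all protein-coding genes. By distance to gene spans, no gene of any kind lay nearer than the receptor gene to any of the 18 regions. The receptor gene was thus the nearest gene for 8 of 8, against 22.9% of all protein-coding genes that were nearest to a reproducible region. Gene spacing enters this count, and the 22.9% was not split by spacing. The nearest other gene of any kind lay 102 kb from P2ry1 and 68.7 kb from S1pr1. Regions within 50 kb of these 2 thus had little or no chance to be nearest to another gene. The genes had been picked with earlier results of these data known, so these counts are descriptions and were not tested.

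**Figure D1:**
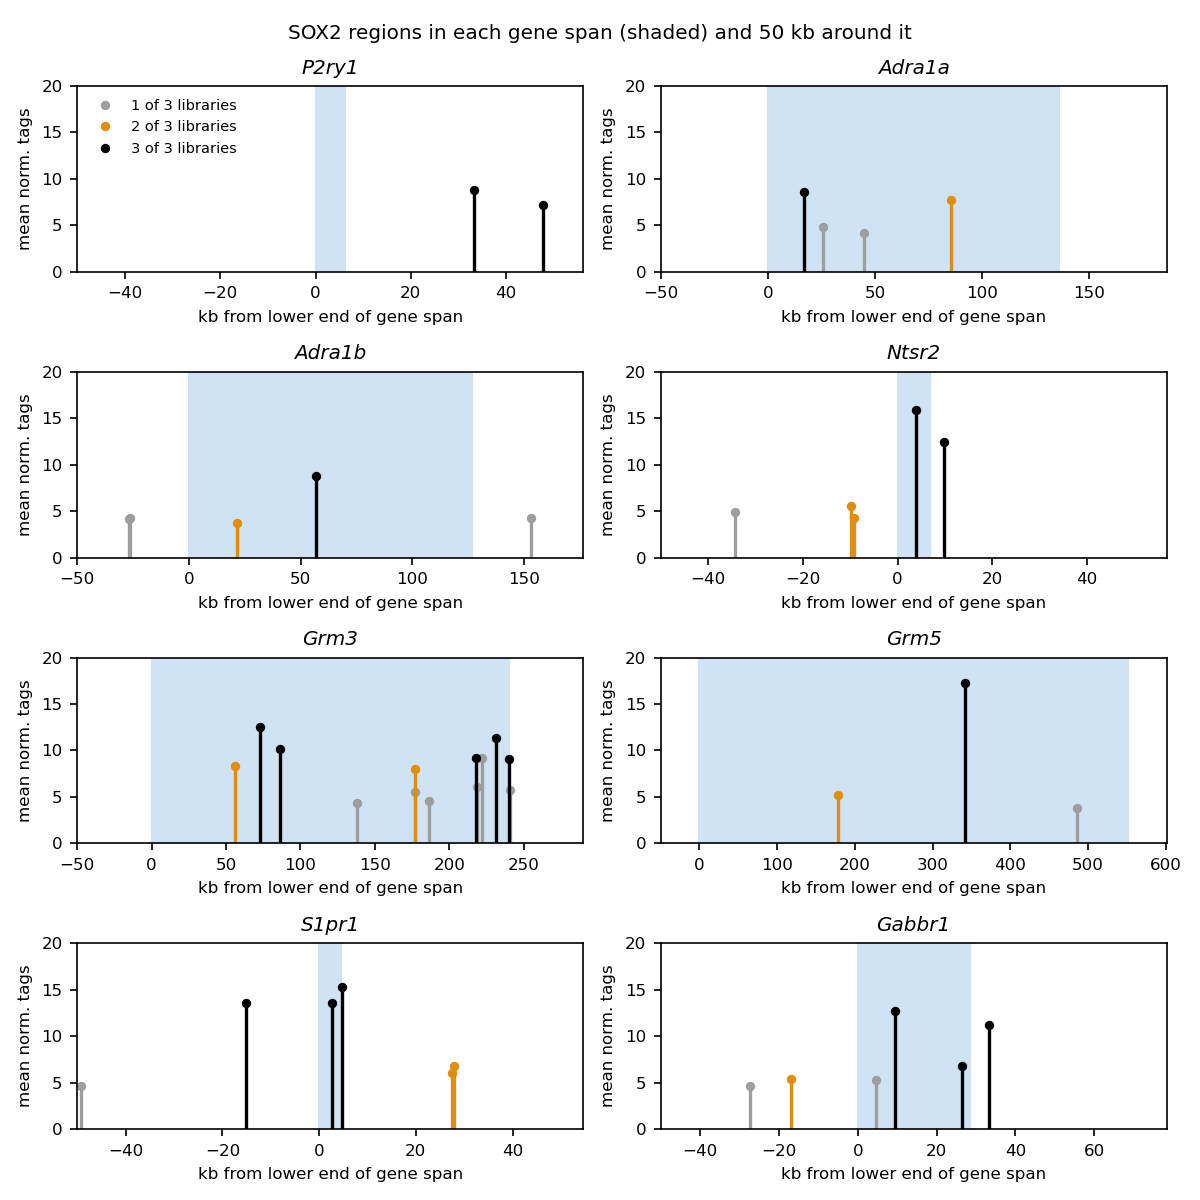
Positions of SOX2 regions around the 8 receptor genes, in kb from the end of the gene span with the lower coordinate (x axis), with the gene span shaded. The height is the mean normalized tags over the libraries that held a peak, black for regions of 3 libraries, orange for 2 and grey for 1. Grm3 carries 5 black regions inside its span, while Grm5 carries 1 in a span of 551 kb, and the black regions of P2ry1 lie 27.0 and 41.6 kb outside it.

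Of the Gq-coupled receptors, Grm5 had the highest mean, with Ntsr2 close behind and higher in IP library 2. The Grm5 region lay inside the gene at chr7:87926002-87926208, 209 kb from the nearer end of a span of 551 kb, and held 20.9, 13.8 and 17.0 normalized tags in IP libraries 1, 2 and 3. All 3 values were well above the median of all reproducible regions in the same library, which was 8.26, 8.00 and 6.93. The mean was 17.2 ± 3.56 (SD, n = 3, as for every mean below), and 6.57% of all reproducible regions were stronger. No other region of Grm5 was reproducible. In 1 further region the peaks of IP libraries 1 and 2 held 4.95 and 5.54 normalized tags, and a last peak of IP library 3 held 3.82, close to the smallest values that a peak could have.

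Ntsr2, a short gene that encodes the low-affinity neurotensin receptor, had its stronger region inside the gene at chr12:16657155-16657327. It held 19.0, 16.0 and 12.7 normalized tags in IP libraries 1, 2 and 3, a mean of 15.9 ± 3.15. The centre lay 3.77 kb from the annotated start of the gene. The other region, at chr12:16663239-16663459, lay 3.11 kb outside the span, and its values were 15.4, 13.8 and 8.12, a mean of 12.4 ± 3.83. IP library 3 was lowest at both. At the outer region the counting intervals of IP libraries 1 and 3 did not overlap, at 11.6 to 20.0 and 5.62 to 11.3 normalized tags (exact Poisson intervals, 95%, for counting error only).

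The P2Y1 receptor gene P2ry1 had no peak inside its span in any library, and both of its reproducible regions lay on the same side. The nearer, at chr3:61035879-61036093 and 27.0 kb outside the gene, held 8.26, 10.2 and 7.88 normalized tags in IP libraries 1, 2 and 3 (mean 8.78 ± 1.24). The farther, at chr3:61050450-61050643 and 41.6 kb outside, held 6.61, 7.69 and 7.40 (mean 7.23 ± 0.559). The libraries were close to each other at both, with IP library 2 highest. The nearest other gene of any kind in the RefSeq table, the pseudogene Gm52663, lay 102 kb from P2ry1.

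Adra1a and Adra1b encode the alpha-1A and alpha-1B receptors, and each had 1 reproducible region, inside the gene. That of Adra1a, at chr14:66651951-66652142 and 16.8 kb from an end of the span, held 8.26, 9.54 and 8.12 normalized tags (mean 8.64 ± 0.783). That of Adra1b, at chr11:43831468-43831649, held 6.33, 7.69 and 12.4 (mean 8.81 ± 3.19). The libraries agreed within counting error at Adra1a. At Adra1b, IP library 3 was the highest, which was the case at 11.8% of all reproducible regions and at 3 of these 18, and its 52 tags stood against 23 and 25 in IP libraries 1 and 2. Its counting interval, from 9.27 to 16.3 normalized tags, still met those of IP library 1 (4.01 to 9.50) and IP library 2 (4.98 to 11.4). The Adra1b region lay 4.93 kb inside the inner of the gene's annotated starts and 69.7 kb from the outer one.

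Of the Gi-coupled receptors, Grm3, the main metabotropic glutamate receptor of mature astrocytes, carried the most regions, 5 reproducible ones among 13, with 9, 8 and 8 peaks in IP libraries 1, 2 and 3. All 5 lay inside the gene, in 2 groups 132 kb apart. The group deeper in the gene held the strongest region, at chr5:9557711-9557923, with 14.6, 10.2 and 12.7 normalized tags (mean 12.5 ± 2.21). Beside it, 13.4 kb away, chr5:9571061-9571295 held 11.3, 7.69 and 11.5 (mean 10.2 ± 2.14). These sites lay 168 and 154 kb from the start of the gene.

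The other group lay near the start of Grm3. The region at chr5:9703099-9703283 held 11.0, 7.39 and 9.07 normalized tags (mean 9.15 ± 1.81), at 22.2 kb inside the gene. The region at chr5:9716413-9716620, 8.84 kb inside, held 11.8, 11.1 and 11.2 (mean 11.4 ± 0.379), the smallest spread of the 18. The region at chr5:9725151-9725337 held 11.3, 7.69 and 8.36 (mean 9.12 ± 1.92), and its centre lay 0.108 kb inside the gene's annotated start. It was the only one of the 18 to overlap a listed promoter window of these genes, by 35 bases, all of them after the start. No window was listed for Adra1a, Grm5 and S1pr1, so overlap with their promoters could not be judged.

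Because this region ended so close to the start, the 250 bases before the annotated start of Grm3 are shown, which it did not itself cover, at chr5:9725353-9725602 on the minus strand. The sequence is from RefSeq on GRCm38.p6, whose coordinates are those of mm10, 5′ to 3′. Capitals would mark a SOX core motif, spelled ATTGT and searched on both strands, and there is none. Spellings that do not contain ATTGT were not searched.

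Grm3: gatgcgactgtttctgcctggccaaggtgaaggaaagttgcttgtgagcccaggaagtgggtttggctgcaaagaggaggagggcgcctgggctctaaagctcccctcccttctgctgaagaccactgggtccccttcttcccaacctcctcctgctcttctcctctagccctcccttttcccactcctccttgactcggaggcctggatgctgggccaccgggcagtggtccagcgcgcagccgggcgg

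The only match to ATTGT among the listed promoter windows of these genes lay before the outer start of Adra1b. That stretch, at chr11:43901238-43901487 on the minus strand, is shown for contrast with ATTGT in capitals. The nearest reproducible region to that start lay 69.7 kb away.

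Adra1b: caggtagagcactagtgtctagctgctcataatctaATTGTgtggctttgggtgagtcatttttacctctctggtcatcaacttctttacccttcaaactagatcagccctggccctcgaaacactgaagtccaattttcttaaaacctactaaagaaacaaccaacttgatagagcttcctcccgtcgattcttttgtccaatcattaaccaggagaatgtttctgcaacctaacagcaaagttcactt

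Promoter windows from 250 bases before to 50 after a start were listed for 5 of the 8 genes, 6 windows in all. Adra1a, Grm5 and S1pr1 had none listed. ATTGT was found in 1 of the 6, against 31.0% of 32851 listed windows and 29.8% of the 1861 windows that a reproducible region overlapped. The longer forms CATTGT and ATTGTT, which contain it, were found in 0 of the 6, against 12.6% and 10.7% of all windows. A match of letters is not a binding site, and the sequence under the regions was not read beyond these windows.

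S1pr1 encodes the main receptor for sphingosine-1-phosphate on astrocytes and endothelium, and it carried 3 reproducible regions around a span of 4.62 kb. The strongest, at chr3:115714974-115715165, was centred 14.5 bases beyond an end of the span and held 18.4, 16.9 and 10.5 normalized tags in IP libraries 1, 2 and 3 (mean 15.3 ± 4.20). Here too IP library 3 was low, with a counting interval of 7.63 to 14.1 that did not meet that of IP library 1, at 14.3 to 23.4. Another region lay 1.95 kb away inside the gene, at chr3:115713026-115713208, with 12.1, 13.2 and 15.3 (mean 13.5 ± 1.63). There the order of the libraries was the opposite, and IP library 3 was highest. The last, at chr3:115695228-115695419 and 15.1 kb outside the other end, held 15.4, 11.4 and 13.9 (mean 13.6 ± 2.02).

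Gabbr1, which encodes the GABA-binding subunit of the GABA-B receptor, also had 3. Its strongest region, inside the gene at chr17:37055337-37055589, held 12.4, 14.8 and 11.0 normalized tags (mean 12.7 ± 1.92). The peaks of the 3 libraries shared only 53 bases there. A weaker region, near the other end of the gene at chr17:37072424-37072593, held 6.33, 7.69 and 6.45 (mean 6.82 ± 0.753), the lowest mean of the 18. The third, at chr17:37079062-37079242, lay 4.85 kb outside the span and held 13.2, 11.1 and 9.31 (mean 11.2 ± 1.95). By distance to gene starts, the protein-coding gene Olfr90 was nearer to the weaker and the third region. Its start lay 13.7 and 7.08 kb from them, against 26.5 and 33.2 kb for that of Gabbr1.

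Ordered by its strongest region, Grm5 came first, then Ntsr2, S1pr1, Gabbr1, Grm3, Adra1b, P2ry1 and Adra1a. Between neighbours in this order, only Grm3 and Adra1b differed by more than the SD of both, by 3.69 normalized tags, and Grm3 was higher in 3 of 3 libraries. The other neighbours differed by 0.0267 to 2.53, less than the larger of their SDs. The order was the same by the authors' peak score and without IP library 1, but not without IP library 2 or IP library 3. Without IP library 2, Grm3 had 13.6 and Gabbr1 11.7, and P2ry1 was last with 8.07. Without IP library 3, S1pr1 had 17.6, Ntsr2 17.5 and Grm5 17.4, and Adra1b was last with 7.01. Without IP library 1, Grm3 and Adra1b came closer, at 11.4 and 10.0. With an overlap of 0.5 of both peaks or with peaks of at least 8-fold, Gabbr1 fell to 11.2, below Grm3.

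**Figure D2:**
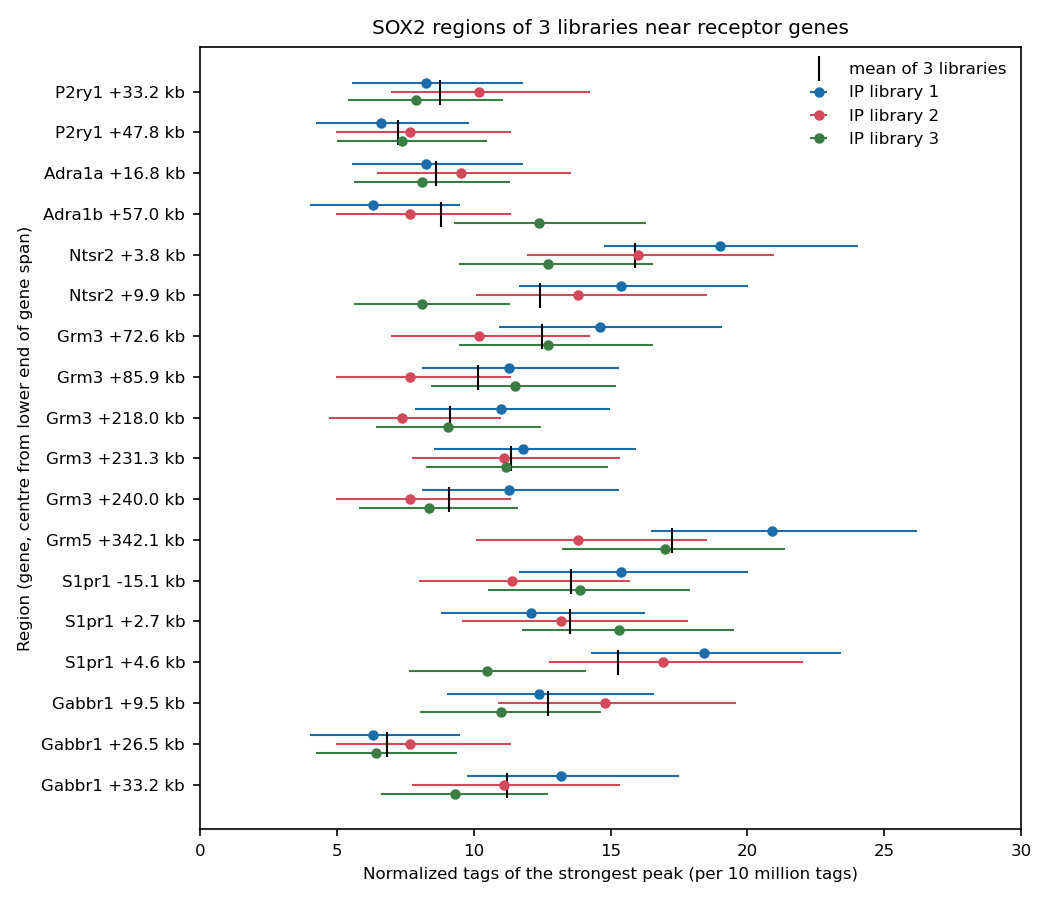
Normalized tags of the strongest peak in each IP library (x axis) for the 18 reproducible regions, named by gene and by the distance of their centre from the lower end of the gene span in kb. Bars are exact 95% Poisson intervals of the tags, and black ticks are means of 3 libraries. The bars of all libraries overlap at 16 of 18 regions and fail to do so at Ntsr2 +9.9 kb and S1pr1 +4.6 kb.

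As a group the 18 regions had a median of 11.3 normalized tags, against 7.63 over all reproducible regions, and 16 of them lay above that value. Only 3 were among the strongest 10% of all, at Grm5, Ntsr2 and S1pr1. The median coefficient of variation over libraries was 17.5%, against 17.3% over all. Inside a protein-coding gene lay 12 of 18 (66.7%), against 53.2% of all, and within 1 kb of an end of a gene span lay 2, at Grm3 and S1pr1 (11.1%, against 19.8%). Over the 1.90 Mb of sequence in the 8 windows there were 9.47 reproducible regions per Mb, against 4.67 over the windows of all protein-coding genes. The windows of single genes ran from 0.154 per 100 kb at Grm5 to 2.87 at S1pr1.

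The comparison with the input asked how far each site rose above unselected chromatin. The folds are the authors' values, and 1 input library served all of them. The median of the 18 mean folds was 23.2, against 15.3 over all reproducible regions. The highest folds stood at the strongest Grm3 region, with 96.1, 66.9 and 83.4 in IP libraries 1, 2 and 3, and at the outer Gabbr1 region, with 87.0, 73.0 and 61.4. In both, the input was at its floor of 0.5 tags in each comparison, so these folds depend on the floor. The Adra1a region was at the floor in 2 of 3 and had 54.4, 31.4 and 53.5.

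Strength and fold ranked the sites differently. The Grm5 region, the strongest by tags, had 3, 2 and 3 input tags and folds of 23.0, 22.8 and 18.6. The inner Gabbr1 region and the outer Ntsr2 region had the most input, 3.9 to 5 tags, and the lowest mean folds, 9.19 ± 2.62 and 8.97 ± 3.19. At the outer Ntsr2 region the fold in IP library 3 was 5.35, not far above the authors' minimum of 4. The regions of P2ry1 had 14.4 ± 2.01 and 23.8 ± 1.85, with 2 and 1 input tags in every comparison.

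**Figure D3:**
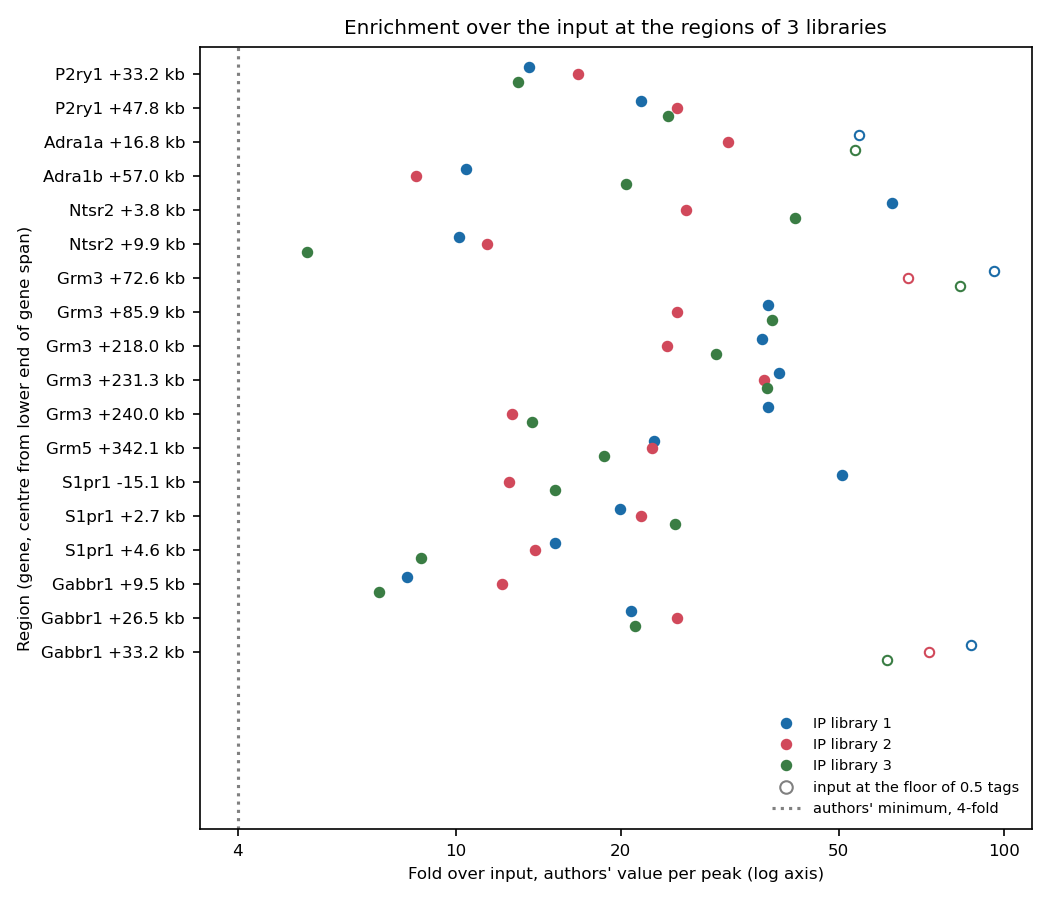
Authors' fold over the input for each IP library (x axis, log scale) at the 18 reproducible regions, named as before. Open circles mark peaks whose input was at the floor of 0.5 tags, and the dotted line is the authors' minimum of 4-fold. The open circles, at Grm3, Gabbr1 and Adra1a, hold the highest values, from 53.5 to 96.1, apart from Ntsr2 in IP library 1 at 62.6.

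The other 26 regions were found in 2 libraries (10) or in 1 (16). Of these, 7 lay nearer to another protein-coding gene. In the Ntsr2 window, 3 lay inside Lpin1, a phosphatidate phosphatase gene whose span overlaps that of Ntsr2. In the Adra1b window, 2 lay at an end of Ttc1, 1 from IP library 1 (4.13 normalized tags) and 1 from IP library 3 (4.30). In the Gabbr1 window, 2 lay in or near Mog, which encodes a protein of myelin. A peak 49.3 kb from S1pr1 lay nearer to the noncoding gene Gm40124.

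Some sites were missed as reproducible only by position. Within Grm3, the peak of IP library 2 at chr5:9661836-9661988 lay 15 bases from the overlapping peaks of IP libraries 1 and 3 at chr5:9662004-9662163. They held 6.61, 5.54 and 9.31 normalized tags in IP libraries 1, 2 and 3. At 23 kb outside S1pr1, a region of IP libraries 1 and 3 lay 118 bases from one of IP libraries 2 and 3. Counted with peaks joined across gaps of up to 200 bp, a choice made after seeing the data, there were 20 regions in place of 18.

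The limit of 50 kb left out values on both sides of it. The peaks just inside lay 49.3 kb from S1pr1, in IP library 1 alone, and 41.6 kb from P2ry1. Just outside, at 53.0 kb from Adra1a, a peak of IP library 2 alone lay inside Dpysl2. At 65.1 and 78.3 kb from S1pr1, still with no nearer protein-coding gene, reproducible regions held 11.4 ± 2.06 and 18.1 ± 2.37 normalized tags. The latter was stronger than any of the 18. It lay nearer to the noncoding gene Gm40124, whose nearer end was 68.7 kb from S1pr1 on the same side.

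The closest relatives of these receptors were compared next, 26 genes of the same families. A reproducible region lay within 50 kb of 14 of them (53.8%), against 46.6% of all protein-coding genes, and 7 were the nearest gene to such a region (26.9%, against 22.9%). The median span of the relatives was 14.8 kb, against 77.5 kb for the 8 receptor genes, and long genes have wider windows. The 2 sets were therefore not alike in their room for regions. The strongest region of the 8 receptor genes ran from 8.64 to 17.2 normalized tags. For 6 relatives the strongest region was nearest to the gene itself, and these ran from 4.30 to 17.7. The highest was Gabbr2, which encodes the partner that Gabbr1 needs to form a working GABA-B receptor, with 17.7 ± 2.08 inside the gene and 4 reproducible regions. Both subunits thus carried regions.

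Among glutamate receptors, Grm2, the closest relative of Grm3, had 2 regions, neither reproducible. Grm4 had 4 reproducible regions, the strongest with 7.10 ± 2.42, and Grm8 had 1 with 7.06 ± 0.567. Ntsr1, the high-affinity neurotensin receptor gene, had 1 with 5.12 ± 0.707.

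Of the 7 adrenergic relatives, Adra1d and Adrb1 had a reproducible region. The strongest near Adra1d held 25.4 ± 5.83 but lay 36.6 kb outside it and inside Smox. Adrb1, the beta-1 receptor gene, held 4.30 ± 0.676 at 0.198 kb outside the gene. Of the 7 P2Y relatives, P2ry12, P2ry13 and P2ry14 shared 1 region inside their neighbour Med12l, with 6.04 ± 1.97. P2ry12 had a further reproducible region to which it was the nearest gene, and P2ry6 had a region nearer to Arhgef17. Of the 4 relatives of S1pr1, S1pr3 held 7.56 ± 0.421 inside the gene, while S1pr4 held 8.19 ± 1.70 at a region nearer to Ncln.

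**Figure D4:**
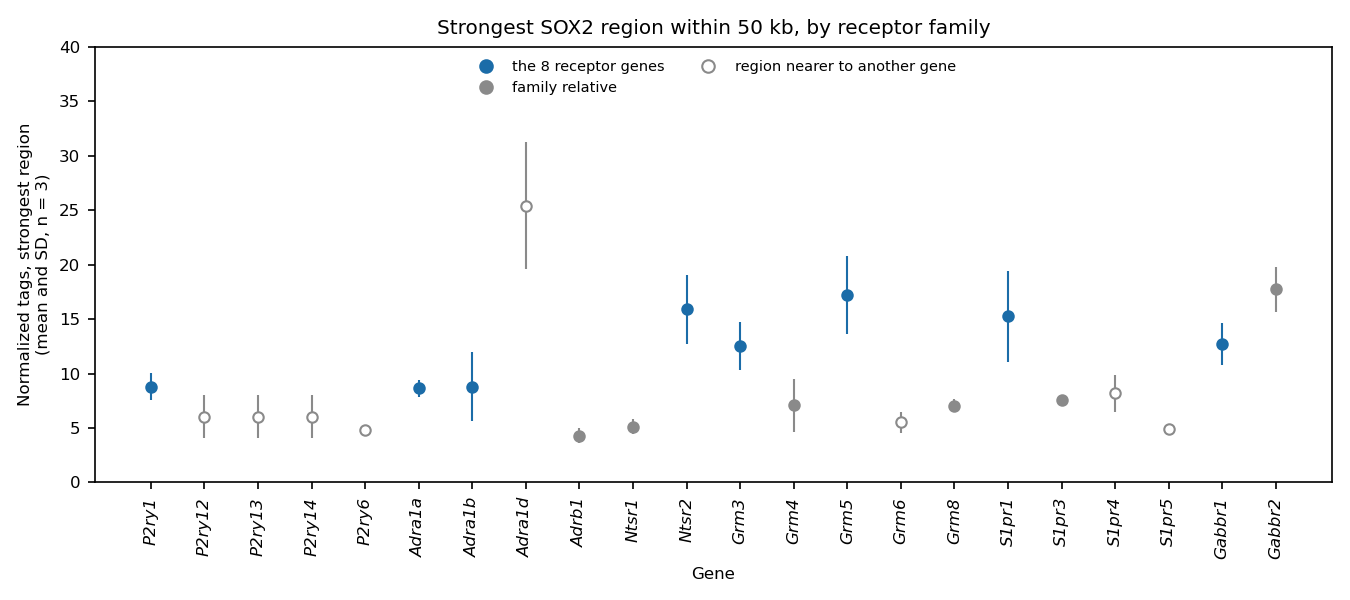
Normalized tags of the strongest reproducible region within 50 kb (y axis, mean and SD, n = 3) for the 8 receptor genes in blue and the 14 family relatives with such a region in grey. Open circles are regions nearer to another gene. All 8 blue points lie at 8.64 or above, and among grey filled points only Gabbr2 does. The median gene span was 77.5 kb for the 8 receptor genes and 14.8 kb for the 26 relatives.

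Other receptors described in astrocytes had a reproducible region at 20 of 30 (66.7%), against 46.6% of all protein-coding genes. By nearest gene the count was 15 of 30 (50.0%, against 22.9%). The median span of this list was 30.1 kb, against 17.3 kb over all protein-coding genes. The strongest region was that of Ednrb, an endothelin receptor gene (20.1 ± 4.27 normalized tags, 36.5 kb outside the gene). Next came Drd1 (18.5 ± 4.23, nearer to Sfxn1), Gprc5b (17.4 ± 5.36, inside the gene) and the adhesion receptor gene Adgrl3 (15.1 ± 1.45, inside). The median of the strongest regions in this list was 11.4, against 12.6 for the 8 genes and 8.56 over all genes with a region.

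The signalling machinery below the receptors, G proteins, phospholipases, IP3 receptors, kinases and cyclases, had a region at 28 of 36 (77.8%, against 46.6% of all protein-coding genes and 63.6% of those with a span of 100 kb or more). Leading were Gnao1, a G protein alpha subunit of the Gi class (23.2 ± 2.90), Adcy8, an adenylyl cyclase (22.9 ± 4.64), Gna13 (21.3 ± 1.89) and Plcb1, a phospholipase C that Gq activates (20.0 ± 5.89). Gnaq, the alpha subunit of Gq itself, held 6.46 ± 2.15 at 14.0 kb outside the gene. Itpr2, the main IP3 receptor gene of astrocytes, held 11.0 ± 1.16 and had 5 reproducible regions, against 1 for Itpr1 and 0 for Itpr3. Gnaq and the Itpr genes were named after their values were seen. The median span of this list was 82.9 kb, against 17.3 kb over all protein-coding genes, and long genes have wider windows. Gna11 and Gna15 shared their strongest region, which lay nearer to Tle2.

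Receptor kinases, arrestins and RGS proteins, which end receptor signalling, were listed together with the Homer genes, Ncdn, Slc9a3r1 and Slc9a3r2. Of this desensitisation list, 20 of 29 had a region (69.0%, against 46.6%). The median span of the list was 44.7 kb, against 17.3 kb over all protein-coding genes. Some neighbours shared their strongest region, as Rgs8 did with Rgs16 and Grk6 with Rgs14. The strongest were those of Rgs7 (24.1 ± 4.72), Rgs20 (21.3 ± 2.77), Arrb1, a beta-arrestin gene (18.0 ± 2.78, nearer to Tpbgl), and Rgs6 (17.9 ± 3.27). Genes that make, release or clear the ligands had a region at 9 of 25 (36.0%, against 46.6%). By nearest gene they stood at 8 of 25, above the share of all genes (32.0% against 22.9%), so the side depended on the rule. Their strongest were Slc1a2, a glutamate transporter gene (35.1 ± 7.96, in the neighbouring Pamr1), and Entpd2, an enzyme that breaks down extracellular ATP (20.4 ± 1.71). The GABA transporter gene Slc6a11 followed (19.3 ± 3.27, 36.8 kb outside the gene). The genes that make noradrenaline, Th and Dbh, and the neurotensin gene Nts had no reproducible region. These lists were counted and not tested.

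ChIP-seq does not measure expression, and the tissue could be checked against cell type markers only by the regions near them. Of 8 markers each, a reproducible region lay near 8 for astrocytes, 6 for neurons, 4 for the oligodendrocyte lineage, 3 for microglia and 4 for endothelial and mural cells, against 46.6% of all protein-coding genes. The nearest gene to such a region was the marker itself for 8, 4, 3, 1 and 2 of them, against 22.9%. Oligodendrocyte, microglia, endothelial and mural markers thus lay within about 1 gene of the share of all genes within 50 kb. The medians of the strongest regions were 11.8, 8.27, 14.9, 6.04 and 6.20 normalized tags in the same order. The oligodendrocyte median rested on few regions: Olig1 and Olig2 shared 1 of 17.0, and Mog was counted through the strongest Gabbr1 region. Which cells gave the tags at the 8 receptor genes was not tested.

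Over the 3 libraries, the genes with a strongest region most like that of Grm5 were Cep128, Mad1l1 and Pou3f2, out of 4788 other genes compared. For this, each reproducible region was assigned to its nearest gene only. Their distance to Grm5 on the log2 scale was 0.0969, 0.0981 and 0.124. With 3 libraries and many genes of a like level, such closeness is a description of these values only.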

How the data were processed

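SOX2 ChIP-seq of mouse cortex was analysed from 3 IP libraries, with 1 input entering through the authors' control columns. The submitters' processing notes list Bowtie 1.0.0, HOMER 4.7 and the build mm10. Each IP library had its own peak calls by the authors, per the file headers. These asked for 4-fold over the input and over the surrounding 10 kb, with limits of 0.001 on the false discovery rate and 0.0001 on the Poisson p-value over the input, per the file headers. The deposited normalized tags are a signal scaled to 10000000 tags. The deposited tags per peak are a whole count in IP library 2, and in the others a scaled signal. Whole tags were computed from normalized tags and library totals, which gave the deposited count for 100% of the peaks of IP library 2. The authors' ratio of IP to input sets a low input to 0.5 tags. The deposited findPeaks score is on the scale of tags but can exceed those counted in a peak, and how it was made is not given in the sources used here. The deposited focus ratio is a fraction of tags placed as the centre predicts (median 0.74 at the 18 regions, 0.742 over all), per the file headers.

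Peaks overlapping by at least 1 bp were chained into regions. Distances run from a region's centre to gene spans of GRCm38.p6, and a region inside several genes counted for each. Samples were grouped by title. One group and 1 input leave no replicated contrast, so no test was run, and differences were set against the SD over libraries and exact Poisson intervals. Members and lists were chosen with earlier results of these data known. Named were the 8 genes, nearer genes, up to 4 strongest of each list and 3 most like the strongest. A few further list genes were named after their values were seen. Some list genes are not reported here. Peak sequences were not read because no genome was used here, nor was the planned motif search in the central 100 bp of peaks. Merging and distances were tested on simulated data. Scripts ran on scipy 1.17.1, pandas 2.3.3, numpy 2.4.6, matplotlib 3.10.9 and Python 3.11.15.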

Additional observations from a re-analysis of the deposited data

How the results depend on the processing

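All 8 genes kept a reproducible region under each of 11 alternatives except the 5 kb window, where P2ry1 had none (7 genes, against 23.1% of all protein-coding genes). The 18 regions became 28 with peaks of at least 2 libraries or a 100 kb window. They became 16 with an overlap of 0.5 of both peaks or with peaks of at least 8-fold. In the 5 kb window there were 15, and S1pr1 had 2 in place of 3. Without 1 IP library, which asks for fewer libraries, there were 20 to 23. Ntsr2 then had 4 without IP library 2, and Adra1a, Adra1b and Grm5 had 2 each without IP library 3. The 0.5 overlap removed the strongest Gabbr1 region and a Grm3 region, and 8-fold removed the former and the outer Ntsr2 region. The median of the strongest regions was 11.9 normalized tags or above without 1 library, with 0.5 overlap, 8-fold, 5 kb, nearest gene, joined gaps or summed peaks. The median fold was 22.0 or above without 1 library or without peaks at the input floor. Neither was computed for the other settings. Family relatives fell from 14 to 5 with peaks above the median of their library (19.2%, below the 32.1% of all genes), to 8 in a 5 kb window (30.8%, against 23.1%) and to 7 by nearest gene (26.9%, against 22.9%). Other astrocyte receptors fell from 20 to 11 in a 5 kb window (36.7%, against 23.1%). Desensitisation genes fell from 20 to 13 at 8-fold (44.8%, against 32.9%), 12 in a 5 kb window (41.4%) and 11 by nearest gene (37.9%). Ligand genes rose from 9 to 16 with 2 libraries (64.0%, against 58.3%) and 17 in a 100 kb window (68.0%, against 60.8%). Their share, below that of all genes at first, was above it under these, by nearest gene, in the 5 kb window and without IP library 2. No paired analysis was possible because there is 1 group of IP libraries and a single input. The median peak held 20 to 22 tags, so counting noise alone can leave a weak site under the minimum in a library.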

Other observations

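IP library 2 gave the lowest value at all 5 reproducible regions of Grm3, against 20.9% of all reproducible regions and 22.9% of those on chromosome 5. This was noticed after the values were seen, and it was not tested. The counting intervals of the 3 libraries overlapped at each of these 5 regions. IP library 3 was lowest at 7 of the 18 regions (38.9%), against 60.1% of all.

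Of the peaks near the 8 genes, 18 of 31, 18 of 30 and 18 of 29 in IP libraries 1, 2 and 3 fell in reproducible regions (58.1%, 60.0% and 62.1%), against 52.7%, 53.0% and 58.7% of all peaks of these libraries.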
